A study of Mus musculus with 4 samples.

Results

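Of 10349 barcodes in the thymus of 1 WT and 1 *Eif4g2* cKO mouse, 98 (0.947%) carried a T cell's CD3 transcripts together with transcripts of innate-like T cells, the unconventional T cells that include NKT and gamma delta T cells. A barcode was chosen when it held at least 4 unique molecular identifiers (UMIs, each counted as 1 transcript molecule) over at least 2 of 9 genes: *Zbtb16*, *Fcer1g*, *Sox13*, *Ccl5*, *S100a4*, *S100a6*, *Xcl1*, *Il2rb* and *Klrd1*. It also had to hold at least 1 UMI of *Cd3d*, *Cd3e* and *Cd3g* together and at most 1 UMI of 6 genes of antigen-presenting cells, *Cd74*, *H2-Aa*, *H2-Ab1*, *Lyz2*, *C1qa* and *C1qb*. These counts chose the cells. The levels of the 9 genes against other thymocytes, and their ratios between the genotypes, are therefore a description and not a finding. The rule took 61 of 6014 WT barcodes and 37 of 4335 *Eif4g2* cKO barcodes. The 5703 WT and 4221 *Eif4g2* cKO barcodes that passed the CD3 and antigen-presenting limits without being chosen are called other T cells here.

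Both mice carried *Eif4g2* flox/flox alleles on a C57BL/6 background and were labelled female and 5 weeks old, with no treatment named. The WT mouse had no *Cre*, and the *Eif4g2* cKO mouse carried the *Cd4*-*Cre* transgene in addition. Unsorted thymus cells of each mouse were captured once on the DNBelab C4 droplet system, under the same batch label, and an oligo library listed beside each cDNA library holds no values of its own here. *Eif4g2*, also known as DAP5, is a relative of the cap-binding scaffold eIF4G1 that takes part in the initiation of translation. *Cd4*-*Cre* becomes active from the stage at which thymocytes express both CD4 and CD8. NKT cells pass through that stage, whereas gamma delta T cells leave the pathway earlier and need not have expressed *Cd4*, which limits the mouse as a model for them.

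Innate-like T cells acquire effector functions while still in the thymus. The transcription factor PLZF, encoded by *Zbtb16*, directs this program in NKT cells, in mucosal-associated invariant T cells and in some gamma delta T cells, and *Sox13* marks gamma delta T cells that can make IL-17. Type 1 cells make interferon gamma under T-bet and carry receptors of natural killer (NK) cells. Type 2 cells depend on GATA3, and type 17 cells make IL-17. IL-15, read through *Il2rb* and *Il2rg*, and IL-7, read through *Il7r*, are cytokines on which many of these cells depend.

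With 1 mouse per genotype no test between genotypes was possible, and the values below are those of 1 library against 1 library. Levels are UMIs of a gene counted per 1000000 UMIs of the cells summed (CPM) with exact Poisson 95% intervals, shares of cells have exact (Clopper-Pearson) 95% intervals, and log2 ratios of *Eif4g2* cKO to WT have exact conditional binomial 95% intervals. All of them cover counting error only. A gene is called higher or lower in *Eif4g2* cKO when its log2 ratio lay beyond 1, a 2-fold difference.

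The floxed gene *Eif4g2* (ENSMUSG00000005610.17, on GRCm38 as all positions here, chromosome 7, 111067750 to 111083030, minus strand) was counted with 4089 UMIs over all WT barcodes and with 4941 over all *Eif4g2* cKO barcodes. In the chosen cells its level was 152 CPM (112 to 201) for WT and 239 CPM (190.1 to 298) for *Eif4g2* cKO, with a log2 ratio of 0.66 (0.13 to 1.20). Where the reads fall relative to the floxed exons was not analysed here, so these counts are no check of the deletion. Its relative *Eif4g1* had 136 CPM (99.1 to 183) and 103 CPM (72.1 to 144).

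The libraries held 18355050 WT and 18056277 *Eif4g2* cKO UMIs, with at least 1000 UMIs in each barcode, and the chosen cells held 322525 (1.76%) and 338341 (1.87%) of these. The chosen cells were deeper than other T cells in both libraries. Their median depth was 3809 UMIs in WT and 7852 in *Eif4g2* cKO, against 1703 and 2103 in other T cells. More than 10000 UMIs were counted in 5 chosen WT cells (8.20%) and in 15 chosen *Eif4g2* cKO cells (40.5%), against 3.81% and 9.36% of other T cells. The deepest cell of each library alone gave 14.8% of the chosen UMIs in WT and 9.18% in *Eif4g2* cKO. Such cells can be droplets with more than 1 cell, and no doublet was removed. The 2 libraries shared 1055 barcode names, none of them among the chosen cells. Although both mice were labelled female, the Y-linked transcripts of *Kdm5d*, *Uty* and *Eif2s3y* had 2542 UMIs in the WT library, of which 29 were in chosen cells, and 1 UMI in the *Eif4g2* cKO library, which was not in a chosen cell. The fourth Y-linked gene listed, *Ddx3y*, had 1427 WT and 510 *Eif4g2* cKO UMIs, of which 23 and 3 were in chosen cells. A difference in sex cannot be told apart from the difference in genotype.

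By share, the chosen cells were 1.01% of WT barcodes (0.777 to 1.30) and 0.854% of barcodes from *Eif4g2* cKO (0.602 to 1.17). The log2 ratio of these shares was −0.25 (−0.88 to 0.36), an interval that includes 0. Depth bears on the rule, since a deeper barcode reaches 4 UMIs more easily. Near the threshold, 8 WT and 6 *Eif4g2* cKO chosen cells held exactly 4 UMIs of the rule's genes. Just outside it, 9 WT and 5 *Eif4g2* cKO T cells held 3 UMIs over 2 or more of these genes, and 25 and 16 held 4 or more UMIs of a single gene. Most T cells held none at all, 92.9% in WT and 94.1% in *Eif4g2* cKO. The chosen cells had a median of 10 such UMIs in WT and of 8 in *Eif4g2* cKO.

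The 9 genes were spread unevenly over the chosen cells, as the plot of UMIs in each cell shows. *S100a6* (ENSMUSG00000001025.8, chromosome 3, 90612882 to 90624181, plus strand), a calcium-binding protein of activated and memory T cells, was widespread, with UMIs in 38 of 61 WT and 25 of 37 *Eif4g2* cKO cells at 837 CPM (740.3 to 943) and 807 CPM (714 to 908). Its neighbour in the same gene cluster, *S100a4* (ENSMUSG00000001020.8, chromosome 3, 90603771 to 90606045, plus strand), had UMIs in 21 and 20 cells. *Il2rb* (ENSMUSG00000068227.9, chromosome 15, 78479256 to 78495271, minus strand), the β chain of the receptors for IL-2 and IL-15, was found in 40 WT cells but in 13 *Eif4g2* cKO cells. Levels of *Il2rb* were 310.1 CPM (252 to 377) in WT and 133 CPM (97.0 to 178) in *Eif4g2* cKO. *Xcl1* (ENSMUSG00000026573.7, chromosome 1, 164931644 to 164935527, minus strand), a chemokine that attracts cross-presenting dendritic cells, was found in 26 WT and 10 *Eif4g2* cKO cells. *Klrd1* (ENSMUSG00000030165.16, chromosome 6, 129591782 to 129598775, plus strand), the CD94 chain of NKG2 receptors, had UMIs in 14 and 12 cells.

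*Zbtb16* (ENSMUSG00000066687.5, chromosome 9, 48654297 to 48836222, minus strand) had 48 UMIs in 18 of 61 WT cells and 7 UMIs in 3 of 37 *Eif4g2* cKO cells. These are 149 CPM (109.7 to 197) and 20.7 CPM (8.32 to 42.6), a log2 ratio of −2.85 (−4.24 to −1.69), and other T cells had 0.482 and 0.173 CPM. Because the count is small in *Eif4g2* cKO, the share of cells is given too: 29.5% of WT cells (18.5 to 42.6) and 8.11% of *Eif4g2* cKO cells (1.70 to 21.9) held a *Zbtb16* UMI. When each cell was thinned to 1000 UMIs the shares were 13.1% and 2.70%, against 0.0351% and 0 of 4221 in other T cells. In the whole libraries 25 WT and 5 *Eif4g2* cKO barcodes held *Zbtb16*, and the chosen cells held 85.7% and 70.0% of all its UMIs.

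*Sox13* (ENSMUSG00000070643.11, chromosome 1, 133382303 to 133424377, minus strand) was concentrated in a few cells, 9 in WT and 6 in *Eif4g2* cKO, at 167 CPM (126 to 218) and 88.7 CPM (59.8 to 127). *Fcer1g* (ENSMUSG00000058715.11, chromosome 1, 171229572 to 171234365, minus strand), a signalling chain of Fc receptors that NK cells, myeloid cells and some gamma delta T cells use, had UMIs in 14 WT and 13 *Eif4g2* cKO cells at 174 CPM (131 to 225) and 163 CPM (122 to 212). Its log2 ratio was −0.10 (−0.66 to 0.47), and 0.97 without barcodes above 10000 UMIs. *Ccl5* (ENSMUSG00000035042.2, chromosome 11, 83525778 to 83530518, minus strand), a chemokine of effector and memory T cells and NK cells, was found in 17 and 14 cells. Its level was 595 CPM (514 to 686) in WT and 1691 CPM (1555 to 1835) in *Eif4g2* cKO, where 1 cell gave 245 of 572 UMIs. *Xcl1* was as uneven, with 108 of 201 *Eif4g2* cKO UMIs in 1 cell.

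**Figure D1:**
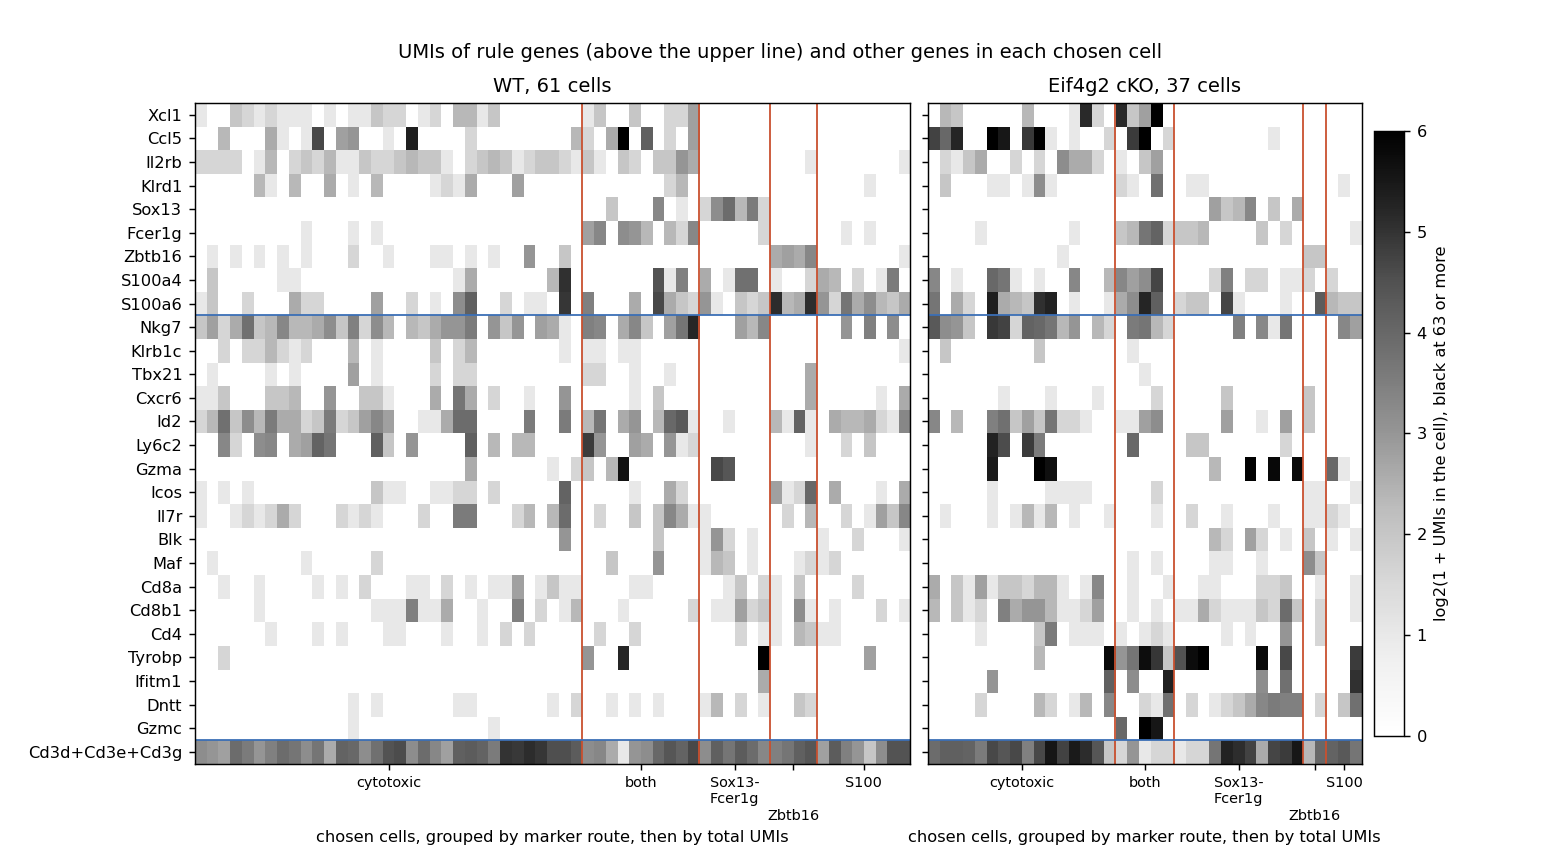
Each column is 1 chosen cell, grouped by marker route (a division by rule genes) and then by depth, each row is a gene or the CD3 sum, and the shade gives log2(1 + UMIs in the cell). *Zbtb16* and *Sox13* never share a column, and columns dark for *Tyrobp* are mostly in *Eif4g2* cKO (13 of 37 cells with 3 or more UMIs, against 4 of 61 in WT).

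Of the markers given for these cells, *Nkg7* is the one outside the rule. It encodes a protein of cytotoxic granules (ENSMUSG00000004612.9, chromosome 7, 43437073 to 43438249, plus strand), and was found in 43 of 61 WT cells (70.5%, 57.4 to 81.5) and 24 of 37 *Eif4g2* cKO cells (64.9%, 47.5 to 79.8). Summed over cells it stood at 908 CPM (807 to 1019) in WT and 679.8 CPM (595 to 774) in *Eif4g2* cKO, against 49.7 and 12.9 CPM in other T cells. The log2 ratio of *Nkg7* was −0.42 (−0.67 to −0.16), but turned to 0.37 without barcodes above 10000 UMIs. After thinning to 1000 UMIs a *Nkg7* UMI remained in 57.4% and 45.9% of chosen cells and in 2.02% and 0.853% of other T cells. As a gauge of free RNA, barcodes with 10 or more UMIs of the antigen-presenting genes held *Nkg7* in 2 of 49 cases in WT (4.08%), at a median depth of 2358 UMIs, and in 0 of 9 in *Eif4g2* cKO, which allows a share of up to 33.3%. A CD3 UMI is a weaker guide to a T cell. Of the same barcodes 28 of 49 in WT (57.1%, 42.2 to 71.2) and 8 of 9 in *Eif4g2* cKO (88.9%, 51.8 to 99.7) held at least 1.

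The CD3 genes themselves gave a median of 12 UMIs per chosen cell in WT and 16 in *Eif4g2* cKO. Other T cells, which were shallower, had 8 and 10. Per UMI the CD3 genes were lower in the chosen cells than in other T cells of both libraries. The log2 ratios of chosen to other T cells were −0.66 in WT and −0.86 in *Eif4g2* cKO for *Cd3e*, and −0.39 and −0.66 for *Cd3g*. *Cd3d* was at 1281 CPM (1160 to 1410) in WT and 733 CPM (645 to 830.1) in *Eif4g2* cKO, against 1489 and 1226 CPM in other T cells. Only 1 WT cell but 7 *Eif4g2* cKO cells held just 1 or 2 CD3 UMIs. The constant genes of the T cell receptor chains, which would separate gamma delta from alpha beta T cells, were not analysed here, so the cells are not divided into NKT and gamma delta T cells.

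To see how the cells fell apart by their marking genes, they were divided into 5 routes by which of the rule's genes reached 2 UMIs. A route is a division of the rule and not a cell type. The cytotoxic route (*Ccl5*, *Xcl1*, *Il2rb* and *Klrd1* together) held the most cells of any route, 33 in WT (54.1%, 40.8 to 66.9) and 16 in *Eif4g2* cKO (43.2%, 27.1 to 60.5). The *Sox13*-*Fcer1g* route held 6 WT cells (9.84%, 3.70 to 20.2) and 11 *Eif4g2* cKO cells (29.7%, 15.9 to 47.0). A further 10 WT and 5 *Eif4g2* cKO cells met both of these routes. The *Zbtb16* route held 4 and 2 cells, and the remaining 8 and 3 cells rested mainly on *S100a4* and *S100a6*. The intervals of the 2 libraries overlapped for every route, which is no test of whether the shares differ. In the *Sox13*-*Fcer1g* route 1 WT cell and 5 *Eif4g2* cKO cells held 3 or more UMIs of *Tyrobp*, a gene of NK and myeloid cells described below, and those 5 held no *Sox13*. Without the cells of 3 or more *Tyrobp* UMIs the route held 5 of 57 WT cells (an interval of 2.91% to 19.3%) and 6 of 24 *Eif4g2* cKO cells (9.77% to 46.7%).

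**Figure D2:**
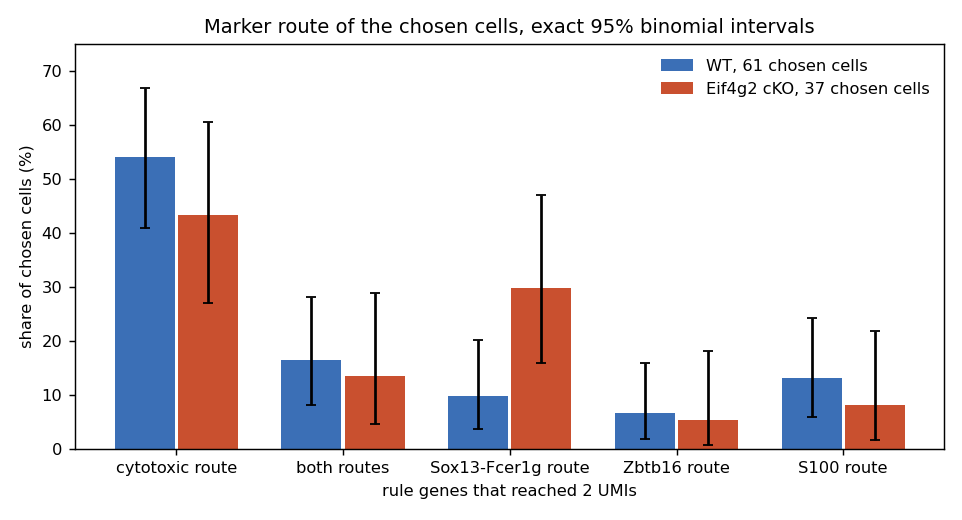
Bars give the share of chosen cells (percent, vertical axis from 0) in each of the 5 routes for WT (61 cells) and *Eif4g2* cKO (37 cells), with exact 95% binomial intervals that cover counting error only. The cytotoxic route is the tallest bar in both libraries, and the *Sox13*-*Fcer1g* route is 9.84% in WT and 29.7% in *Eif4g2* cKO.

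Within the cytotoxic route of both libraries together, *Cxcr3*, a chemokine receptor of type 1 T cells, and *Klrb1c*, the NK1.1 receptor, were more abundant than in the rest of the chosen cells. *Cxcr3* had 33 UMIs in 18 of 49 cells (112 CPM, against 10.9 CPM in the rest) and *Klrb1c* 36 UMIs in 15 of 49 cells (123 CPM, against 16.3 CPM). By library, *Klrb1c* had 30 UMIs in 13 of 33 WT cells of this route (189 CPM) and 6 UMIs in 2 of 16 *Eif4g2* cKO cells (44.7 CPM). A combination of *Xcl1*, *Il2rb* and *Nkg7* in the same cell was seen in 21 WT cells (34.4%, 22.7 to 47.7) and in 6 *Eif4g2* cKO cells (16.2%, 6.19 to 32.0). By contrast, 10 or more *Ccl5* UMIs were counted in 4 WT cells (6.56%, 1.82 to 15.9) and in 9 *Eif4g2* cKO cells (24.3%, 11.8 to 41.2). *Ly6c2*, a surface protein of effector and memory CD8 T cells, was found in 3 of these WT cells and in 5 of these *Eif4g2* cKO cells, and *Cd8b1* in 2 and 6. In *Eif4g2* cKO the cell with 74 *Ccl5* UMIs held 29 of *Nkg7*, 38 of *Ly6c2* and 43 of *Gzma*, and the cell with 45 *Ccl5* UMIs held 26 of *Nkg7*, 23 of *Ly6c2* and 10 of *Cd8b1*.

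In WT, *Zbtb16* transcripts lay in several routes. In the cytotoxic route 13 of 33 cells held *Zbtb16*, mostly a single UMI beside *Nkg7*, *Il2rb* and *Xcl1*, but 1 of them, a cell of 8138 UMIs with 34 CD3 UMIs, held 7 *Zbtb16* UMIs and 0 of *Nkg7*, *Xcl1* and *Icos*. A cell of the S100 route held 1 *Zbtb16* UMI. The 4 cells of the *Zbtb16* route had 5, 6, 5 and 9 *Zbtb16* UMIs and no *Nkg7*. All of them held *Icos*, a costimulatory receptor, with 6, 1, 2 and 15 UMIs, and *S100a6*, with 34, 4, 5 and 33 UMIs. Of the 18 WT cells with *Zbtb16*, 11 also held *Icos*, as did all 3 *Eif4g2* cKO cells. No cell of either library held UMIs of both *Zbtb16* and *Sox13*.

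Of the *Sox13* cells in WT, 3 of 9 held *Gzma*, a granule protease, with 24, 20 and 4 UMIs, and others held *S100a4*, with 21, 13, 13 and 10 UMIs in the 4 highest. In *Eif4g2* cKO, 4 of 6 held *Gzma*, with 90, 56, 55 and 4 UMIs. *Blk*, a kinase of B cells that is also made by IL-17-producing gamma delta T cells, accompanied *Sox13* in 5 WT and 3 *Eif4g2* cKO cells. The *Sox13*-*Fcer1g* route of both libraries together was led by *Cpa3*, with 35 UMIs in 5 of 17 cells, *Plk1*, a mitotic kinase, with 23 UMIs in 3 cells, and *Hist1h2ae*, a histone gene, with 295 UMIs in 4 cells. The route also includes 5 *Eif4g2* cKO cells with 3 or more *Tyrobp* UMIs and no *Sox13*. It holds the deepest chosen cell of each library, of 47667 UMIs in WT and 31061 in *Eif4g2* cKO, with 12 *Mki67* UMIs each. These 3 genes were not divided by library, *Sox13* or *Tyrobp*.

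A set of cells in *Eif4g2* cKO stood apart from the label. *Tyrobp* (ENSMUSG00000030579.10, chromosome 7, 30413760 to 30417585, plus strand), the DAP12 signalling adaptor of NK and myeloid cells, reached 3 or more UMIs in 13 of 37 *Eif4g2* cKO cells (35.1%, 20.2 to 52.5) but in 4 of 61 WT cells (6.56%, 1.82 to 15.9). Among other T cells the share was 0.0877% in WT and 0.0948% in *Eif4g2* cKO. The *Tyrobp* cells of *Eif4g2* cKO had a median of 2 CD3 UMIs, against 20 in the chosen cells without it, and all 7 cells with 1 or 2 CD3 UMIs were among them. In WT the medians were 5.5 and 14. The macrophage gene *C1qc*, which is outside the rule, was at 0 UMIs in the chosen cells of both libraries. *Lyz2*, *C1qa* and *C1qb* were at 0 too, but the rule limited them. Other myeloid and dendritic genes differed: *Itgax*, *Csf1r*, *S100a8* and *S100a9* were at 0 in WT only, and *H2-Eb1* in *Eif4g2* cKO only.

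**Figure D3:**
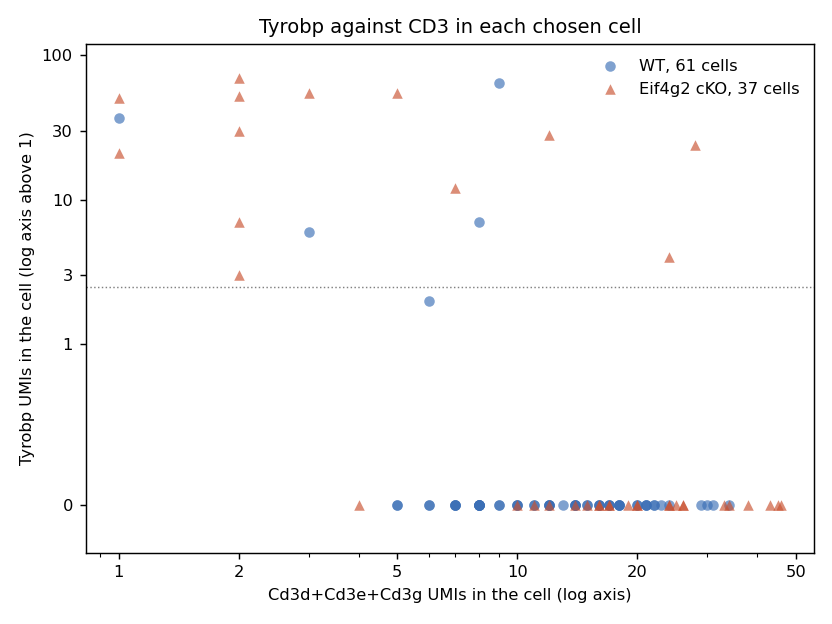
Each point is 1 chosen cell, with its CD3 UMIs on the horizontal axis and its *Tyrobp* UMIs on the vertical axis, both on log axes, with 0 added below; the dotted line lies below 3 *Tyrobp* UMIs. The 13 *Eif4g2* cKO cells (triangles) above the line have a median of 2 CD3 UMIs, and most cells below it have 0 *Tyrobp* UMIs.

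The *Tyrobp* cells of *Eif4g2* cKO held 53 of 55 *Fcer1g* UMIs, 343 of 572 *Ccl5* UMIs and 152 of 201 *Xcl1* UMIs. Of the 343 *Ccl5* UMIs, 245 came from 1 cell near the limit, with 4 *Tyrobp* and 24 CD3 UMIs, and the other 12 cells held 98. Without such cells *Fcer1g* had 39 WT and 2 *Eif4g2* cKO UMIs, a log2 ratio of −4.02. *Gzmc*, a granzyme of activated cytotoxic cells, had 301 UMIs in 3 of them (240, 46 and 15) and 2 UMIs in all WT cells. Other *Tyrobp* cells held *Ifitm1*, an interferon-induced membrane protein, or *Dntt*, the terminal transferase of immature lymphocytes, which reached 5 UMIs in 5 of them. With such cells left out, 57 WT cells (0.948% of barcodes, 0.719 to 1.23) and 24 *Eif4g2* cKO cells (0.554%, 0.355 to 0.823) remained. This division was made after the values had been seen, and for some genes below the ratio without these cells stands beside the ratio with them.

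Coreceptors were low in the chosen cells of both libraries. *Cd8b1* stood at 214 CPM (166 to 271) in WT and 272 CPM (219 to 333) in *Eif4g2* cKO, against 1842 and 1790 CPM in other T cells, most of which are thymocytes that make both coreceptors. *Cd4* stood at 86.8 CPM (57.7 to 125) and 100.5 CPM (69.6 to 140.4), against 596 and 504 CPM. No coreceptor UMI at all was found in 20 WT cells (32.8%, 21.3 to 46.0) and 5 *Eif4g2* cKO cells (13.5%, 4.54 to 28.8), although these were deeper than other T cells, of which 4.65% and 3.74% lacked one. At 1000 UMIs per cell the shares were 68.9% and 56.8% of chosen cells and 12.8% and 12.7% of other T cells. Genes of the CD4 CD8 double-positive stage were low likewise. The recombinase gene *Rag1* had 37.2 CPM (19.2 to 65.0) and 44.3 CPM (24.8 to 73.1), against 405 and 332 CPM in other T cells, and *Themis* had 149 CPM (109.7 to 197) and 85.7 CPM (57.4 to 123), against 1059 and 354 CPM.

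Beyond the rule, 91 of 1714 genes (5.31%) with 20 or more UMIs in the chosen cells of each library were over 2-fold above other T cells in both libraries. The cells were chosen in the same data, so this count describes them and supports nothing more. The 15 genes with the largest such difference were *Tyrobp*, *Lgals3*, *Ly6c2*, *Pglyrp1*, *Ahnak*, *Blk*, *Cd7*, *Coro2a*, *Ly6a*, *Nkg7*, *Ctla2a*, *Cd160*, *Capg*, *Nrgn* and *Prr13*. *Cd7*, a receptor of T and NK cells, had 397 CPM (331 to 472) in WT and 166 CPM (125 to 215) in *Eif4g2* cKO, against 18.4 and 1.39 CPM in other T cells. *Cd160*, a receptor of NK cells and intestinal T cells, had 77.5 CPM (50.2 to 114) and 97.5 CPM (67.1 to 137), against 5.00 and 2.83 CPM. *Ly6c2* and *Ly6a*, surface proteins of activated and memory T cells, had 574 CPM (494 to 662) and 310.1 CPM (252 to 377) in WT and 364 CPM (302 to 434) and 103 CPM (72.1 to 144) in *Eif4g2* cKO. *Lgals3*, which encodes galectin-3, had 350.4 CPM (289 to 421) and 94.6 CPM (64.7 to 134), and *Ahnak*, a giant scaffold protein, had 130.2 CPM (93.9 to 176) and 65.0 CPM (40.7 to 98.4). *Id2*, a transcriptional regulator needed by innate-like and innate lymphocytes, had 849.5 CPM (752 to 956) in WT and 287 CPM (232 to 349.7) in *Eif4g2* cKO, against 55.4 and 29.0 CPM in other T cells.

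**Figure D4:**
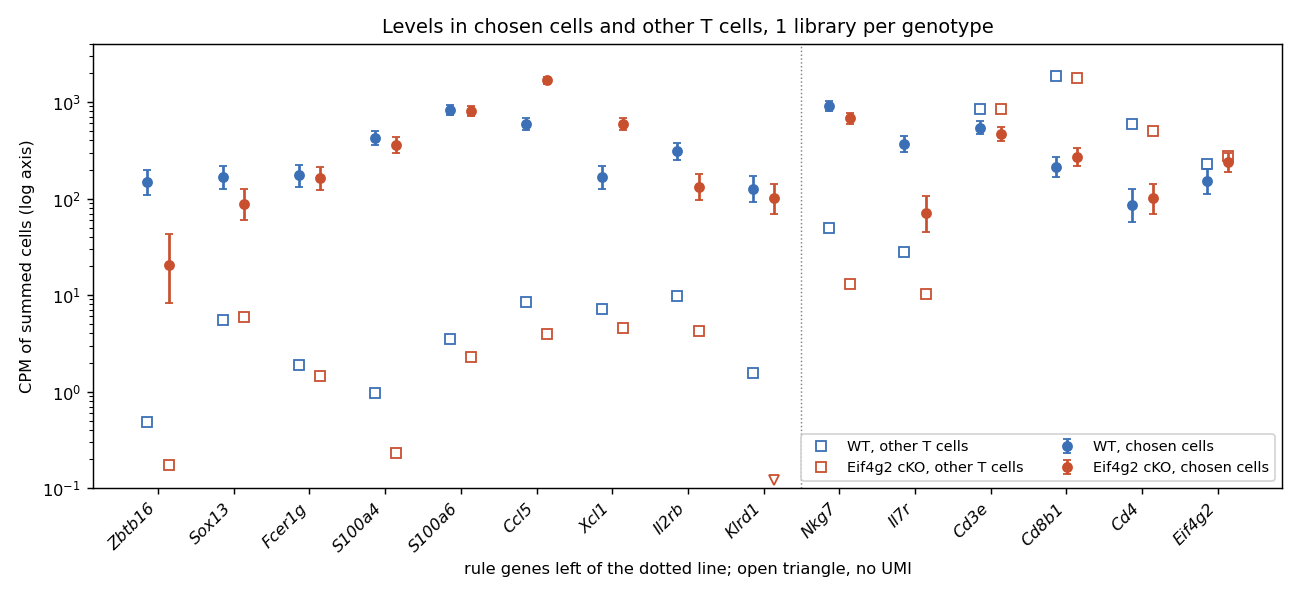
Levels of the 9 rule genes and 6 other genes in the chosen cells of WT and *Eif4g2* cKO (filled points with exact Poisson 95% intervals, counting error only) and in other T cells of the same library (open squares, or a triangle where no UMI was counted), in CPM on a log axis. The *Zbtb16* points lie at 149 CPM for WT and 20.7 CPM for *Eif4g2* cKO, and the coreceptors are below their level in other T cells.

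Between the genotypes, 1702 genes had 50 or more UMIs in the chosen cells. Of these 98 (5.76%) were higher and 170 (9.99%) were lower in *Eif4g2* cKO, and the median log2 ratio was 0.02 over all of them and 0.03 for the same genes in other T cells. Genes spanning over 100 kb had a median log2 ratio of −0.92 in the chosen cells and of −1.13 in other T cells, while those of up to 5 kb had 0.09 and 0.21. Without the *Tyrobp* cells, 112 of 1278 genes (8.76%) were higher and 142 (11.1%) lower. Gene lists were read over members with 20 or more UMIs, for which the background is 7.32% higher and 15.1% lower among 4151 genes, with a median log2 ratio of −0.07. This background covers all chosen cells, and none at 20 UMIs is given for the alternatives that leave out cells.

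Of 10 genes shared by innate-like T cells, 7 were lower and 0 higher, with a median log2 ratio of −1.70. The median was −1.05 over 8 genes of the list in other T cells. In the chosen cells without the *Tyrobp* cells it was −2.19 over 9 genes, of which 7 were lower and 1, *Tnfrsf9*, was higher. *Zbtb16* and *Il2rb* helped to choose the cells, and without them 5 of 8 were lower, namely *Id2*, *Klrb1c*, *Icos*, *Cxcr6* and *Il18r1*. Whether these counts exceed the background was not tested. Without barcodes above 10000 UMIs, 5 of 9 measured genes of the whole list were lower and 2 higher, with a median of −1.14. *Icos* had 75 UMIs in 22 WT cells and 10 UMIs in 9 *Eif4g2* cKO cells, a log2 ratio of −2.98 (−4.09 to −2.02), against −1.16 in other T cells. *Cxcr6*, a chemokine receptor that guides NKT cells, had 76 UMIs in 21 cells and 11 in 6 cells, a log2 ratio of −2.86 (−3.92 to −1.94), against −3.03 in other T cells. *Klrb1c* had 35 UMIs in 18 cells and 7 in 3 cells, a log2 ratio of −2.39 (−3.81 to −1.20), or −1.14 without barcodes above 10000 UMIs. *Id2* had a log2 ratio of −1.57 (−1.92 to −1.23), or −0.83 without barcodes above 10000 UMIs, against −0.94 in other T cells, and *Il18r1*, a chain of the IL-18 receptor, one of −1.83 (−3.02 to −0.78). *Cd44*, *Tnfrsf9* and *Cd160* were within 2-fold, with ratios of 0.25, 0.65 and 0.33. With barcodes above 10000 UMIs left out, *Cd44* and *Cd160* were higher, at 1.00 and 1.14, and *Tnfrsf9* was higher at 1.06 without the *Tyrobp* cells. *Zbtb16* kept a ratio of −2.51 and *Icos* one of −3.15 without the *Tyrobp* cells.

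Type 1 and cytotoxic genes split in both directions. Of 13 measured, 3 were higher and 6 lower, with a median of −0.79 (−1.23 over 8 genes in other T cells). Without barcodes above 10000 UMIs 3 were higher and 4 lower, and the median turned to 0.32. The 3 higher genes were *Gzma*, *Ccl5* and *Xcl1*, the last 2 of which helped to choose the cells; without the genes of the rule 1 of 10 was higher and 6 lower, with a median of −1.24. *Gzma* had 107 UMIs in 8 WT cells and 410 UMIs in 9 *Eif4g2* cKO cells, a log2 ratio of 1.87 (1.56 to 2.19), and no single cell gave over 23.4% of the *Eif4g2* cKO UMIs. Without the *Tyrobp* cells the *Gzma* ratio was 2.76. *Xcl1* had a ratio of 1.83 (1.39 to 2.29), but of 0.16 without the *Tyrobp* cells, and of 0.88 without the cell that held most of its UMIs in each library. *Ccl5* had a ratio of 1.51 (1.27 to 1.75), and of 1.14 without the *Tyrobp* cells. The ratios of *Xcl1* and *Ccl5* were 2.74 and 2.73 without barcodes above 10000 UMIs. The lower genes were *Tbx21*, *Klrk1*, *Klre1*, *Gzmb*, *Ctsw* and *Samd3*. *Tbx21*, which encodes T-bet, had 27 UMIs in 13 WT cells and 1 UMI in 1 *Eif4g2* cKO cell, a log2 ratio of −4.82 (−10.18 to −2.22). *Klrk1*, the NKG2D receptor, had a ratio of −2.53 (−4.07 to −1.26), and the protease gene *Gzmb* one of −2.24 (−3.81 to −0.93). With barcodes above 10000 UMIs left out, *Tbx21*, *Klrk1* and *Gzmb* stood at −3.32, −1.32 and −1.24. *Klre1*, an NK receptor chain, had a ratio of −1.29, but of −0.080 without barcodes above 10000 UMIs. *Ctsw*, a cathepsin of cytotoxic lymphocytes, had a ratio of −1.19 (−1.71 to −0.70), which was near 0 (0.029) without barcodes above 10000 UMIs.

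**Figure D5:**
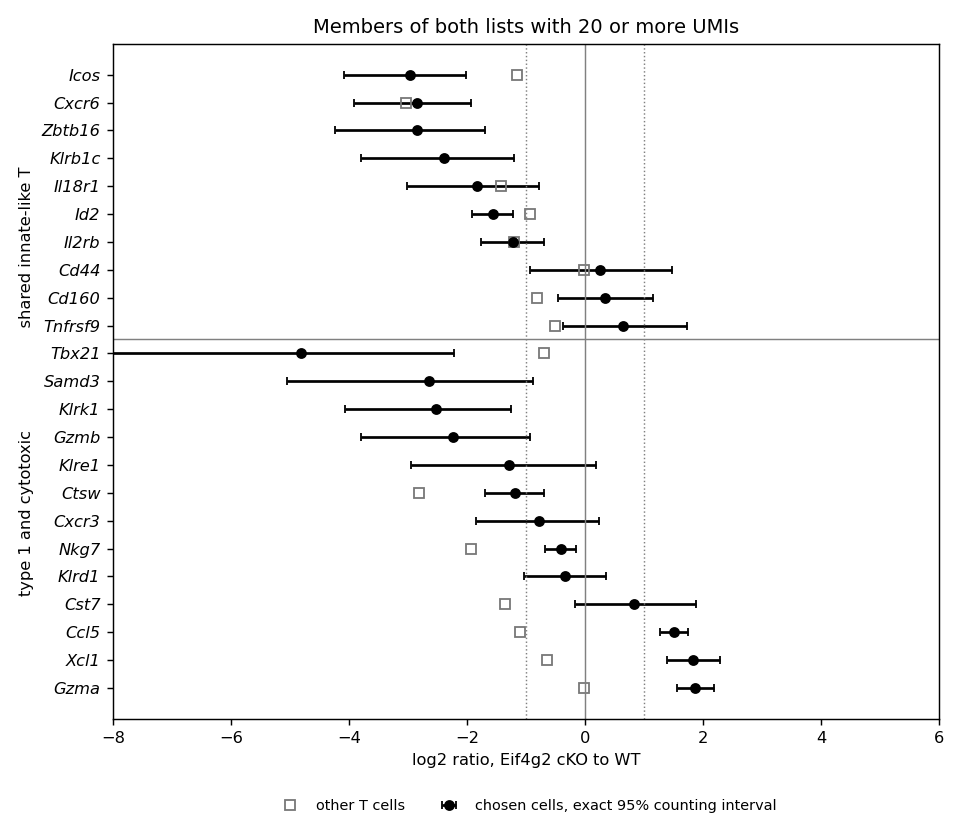
Log2 ratio of *Eif4g2* cKO to WT in the chosen cells (filled points) with exact 95% intervals, for the shared innate-like T list (above) and the type 1 and cytotoxic list (below), beside the ratio of the same gene in other T cells where both libraries had over 3 UMIs there (open squares); the interval of *Tbx21* runs past the left edge. *Zbtb16*, *Icos*, *Cxcr6* and *Klrb1c* lie below −2, and *Gzma*, *Ccl5* and *Xcl1* above 1. *Zbtb16*, *Il2rb*, *Klrd1*, *Ccl5* and *Xcl1* helped to choose the cells.

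The type 2, type 17 and gamma delta lists were small. Of 4 type 2 genes, *Plac8* was higher, at 1.40 (1.12 to 1.69), and *Icos* and *Izumo1r*, the folate receptor 4 of some T cells, were lower. The ratio of *Plac8* turned to −0.13 without the *Tyrobp* cells. *Gata3*, the type 2 transcription factor, was within 2-fold at 0.30 (−0.31 to 0.93). *Il4* was seen with 7 UMIs, all in WT. Of 7 type 17 genes, *Tmem176b* was higher at 1.27 (0.38 to 2.24) and *Ccr6* was lower, with 21 UMIs in 4 WT cells and 0 in *Eif4g2* cKO, at least 7.34-fold lower against a floor of 3 UMIs. *Il17a*, the cytokine of type 17 cells, had 7 and 0 UMIs. Of 7 gamma delta genes, *Cd163l1* and *Bcl11b* were lower, at −2.57 (−4.98 to −0.78) and −1.28 (−1.71 to −0.86), and the others were within 2-fold, among them *Sox13* at −0.92 (−1.61 to −0.25) and *Blk* at −0.39 (−1.32 to 0.52). When barcodes above 10000 UMIs were left out, 3 of 6 measured were lower, *Sox13* at −1.97, *Id3* at −1.57 and *Bcl11b* at −1.51. *Sox13* and *Fcer1g* of this list helped to choose the cells. Over all chosen cells 2 of the 5 other genes were lower, *Cd163l1* and *Bcl11b*, with a median of −0.86. *Maf*, a transcription factor of IL-17-producing cells, had −0.93.

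Among 17 genes of the common gamma chain receptors and their JAK-STAT pathway, 6 were lower and 0 higher, with a median of −0.81 in the chosen cells and −0.87 in other T cells. *Il2rb* helped to choose the cells, and without it 5 of 16 were lower, with a median of −0.68. The call depended on which cells were kept: 2 of 14 measured were lower and 1 higher without barcodes above 10000 UMIs (median −0.63), and 7 of 14 lower and 1 higher without the *Tyrobp* cells (median −0.99). The receptor genes *Il7r* and *Il2rb* were lower, *Il2rb* at −1.22 (−1.76 to −0.70), or −0.75 without barcodes above 10000 UMIs. *Il7r* had 119 UMIs in 32 WT cells and 24 UMIs in 16 *Eif4g2* cKO cells, 369 CPM (306 to 442) and 70.9 CPM (45.4 to 106). Its log2 ratio was −2.38 (−3.08 to −1.74), or −1.55 without barcodes above 10000 UMIs, and −1.47 in other T cells, where its levels were 28.2 and 10.2 CPM. *Il2rg*, the shared chain of these receptors, was within 2-fold at −0.87 (−1.29 to −0.46), but just beyond it at −1.11 without the *Tyrobp* cells and −1.01 against genes of like span, and nearer to 0 (−0.40) without barcodes above 10000 UMIs. Of the signalling genes, *Stat4*, which acts below the IL-12 receptor, was lower, with 42 UMIs in WT and 11 in *Eif4g2* cKO, and *Stat6* was lower at −1.48 (−3.13 to −0.06), while the kinase gene *Jak1* stood at −0.81 (−1.25 to −0.37), or −1.01 without the *Tyrobp* cells. Downstream, *Ccnd2* and *Runx3* were lower at −1.03 (−1.37 to −0.70) and −1.16 (−1.81 to −0.53). *Runx3* was within 2-fold at −0.22 without barcodes above 10000 UMIs and at −0.87 against the median of genes of like span. In other T cells the ratios of *Il2rb*, *Il2rg* and *Runx3* were −1.20, −0.69 and −1.27, near those of the chosen cells. The survival gene *Bcl2* went the other way, at 0.87 (0.16 to 1.62), within 2-fold, against −1.38 in other T cells. Its ratio was 1.69 without barcodes above 10000 UMIs, 1.77 against genes of like span and 0.46 without the cell holding most of its UMIs in each library. Of 5 other cytokine receptor genes, *Il18r1* and *Il27ra* were lower and 0 were higher, with a median of −0.96. Leaving out barcodes above 10000 UMIs, *Ifngr1* was lower too, at −1.34, and the median was −1.34. Leaving out the *Tyrobp* cells, 4 were lower, with *Ifngr1* at −1.07 and *Il17ra* at −1.62, and the median was −1.32.

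Lineage transcription factors were lower in 9 of 19 cases and higher in 0, with a median of −0.93 in the chosen cells and −0.90 over 18 genes in other T cells. *Zbtb16* and *Sox13* belong to the rule, and without them 8 of 17 were lower. Beside those already given, *Runx1*, *Zbtb7b*, *Klf6* and *Bach2* were lower, at −2.02, −2.16, −1.83 and −1.57. *Klf2*, which governs exit from the thymus, was within 2-fold at −0.14 (−0.69 to 0.40), and *Tcf7*, a factor of early and resting T cells, stood at 0.41 (0.00 to 0.82). Of 15 homing and egress genes, 1 was higher and 4 (*Ccr7*, *Itgae*, *Cxcr6* and *Ly6a*) were lower, with a median of −0.66, whereas without barcodes above 10000 UMIs 0 of 14 were higher and 2 (*Itgae* and *Cxcr6*) lower, with a median of −0.068. *Itgae*, the CD103 integrin that binds epithelial cadherin, had 39 WT and 7 *Eif4g2* cKO UMIs, a log2 ratio of −2.55 (−3.95 to −1.37). Of 14 genes of mature conventional T cells 1 was higher and 5 were lower (*Ccr7*, *Il7r*, *Zbtb7b*, *Runx3* and *Gimap3*), with a median of −0.50, against −1.55 in other T cells, while without barcodes above 10000 UMIs 0 of 12 were higher and 2 lower, with a median of 0.072. Of 5 regulatory T cell genes, *Ctla4*, *Tnfrsf4* and *Tnfrsf18* were lower and 0 were higher. *Tnfrsf4* had 27 UMIs in 3 WT cells, 70.4% of them in 1 cell, and 0 in *Eif4g2* cKO, at least 9.44-fold lower against a floor of 3 UMIs. *Foxp3* had 7 and 0 UMIs.

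Genes of the T cell receptor complex and its signalling mostly stayed within 2-fold. Of 11 measured, 0 were higher and 1 lower, with a median of −0.21, and *Lck*, the kinase that starts receptor signalling, stood at −0.37 (−0.72 to −0.01). The 3 coreceptor genes were within 2-fold, as were all 6 genes of the eIF4G family and its partners. Without barcodes above 10000 UMIs *Cd8a* was higher at 1.14 and *Eif4e* at 1.49, and without the *Tyrobp* cells *Eif4a1* at 1.02. Of 9 genes of the double-positive stage, *Dntt* was higher and *Arpp21* and *Endou* were lower. Of 8 genes induced by receptor signalling, *Jun*, *Junb* and *Tnfaip3* were lower and 0 were higher. *Junb*, a subunit of the AP-1 factor, had 440.3 CPM (371 to 519) and 159.6 CPM (119.9 to 208). Of 5 stress genes *Jun* was lower and the other 4 were within 2-fold, and of 4 chemokine and cytokine genes *Ccl5* and *Xcl1*, both genes of the rule, were higher, while *Il2* and *Ltb*, outside the rule, were within 2-fold. With the *Tyrobp* cells left out, *Hsp90aa1* of the stress genes was higher at 1.14 and *Jun* within 2-fold at −0.65. Among the genes induced by receptor signalling, *Dusp2* was higher at 1.43 without barcodes above 10000 UMIs. The 7 early post-selection genes were within 2-fold, except that *Ikzf2* stood at −2.28 without barcodes above 10000 UMIs and *Itm2a* at 1.01 without the *Tyrobp* cells. In the list of S100 and actin-binding genes 13 of 15 were within 2-fold, and *Lgals3*, at −1.89 (−2.50 to −1.31), and *Ahnak* were lower, with a median of −0.24. Without barcodes above 10000 UMIs both were within 2-fold, at 0.11 and −0.52, *S100a4* and *S100a6* were higher, at 1.05 and 1.00, and the median was 0.42. *S100a4* and *S100a6* helped to choose the cells. Over all chosen cells 2 of the 13 other genes were lower, with a median of −0.35.

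Of 10 cell cycle genes 5 were higher and 0 lower, with a median of 0.95 in the chosen cells and 0.64 in other T cells, and without the *Tyrobp* cells 9 were higher with a median of 2.18. The cells so removed include the deepest chosen WT cell, of 47667 UMIs, which held 12 of the 14 *Mki67* UMIs in WT. Leaving out that cell alone, 8 were higher, with a median of 2.26. The share of all genes higher at 20 UMIs is not given for either setting. At 50 UMIs it was 8.76% without the *Tyrobp* cells. *Stmn1*, a microtubule regulator, had 543 CPM (465 to 629) in WT, 60.6% of it from 1 cell, and 1283 CPM (1165 to 1409) in *Eif4g2* cKO. *Mki67* had 14 UMIs in 3 WT cells and 34 UMIs in 11 *Eif4g2* cKO cells, a log2 ratio of 1.21 (0.28 to 2.22). *Mcm5*, a subunit of the replicative helicase, had 10 UMIs in 7 cells and 44 UMIs in 15 cells, a ratio of 2.07 (1.06 to 3.22), and of 0.14 without barcodes above 10000 UMIs. The chosen *Eif4g2* cKO cells were also the deeper ones. Without barcodes above 10000 UMIs only 4 cell cycle genes reached 20 UMIs, of which 0 were higher or lower, with a median of 0.65.

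Markers of other cell types differed between the libraries as well. Of 4 myeloid and dendritic genes with enough UMIs, *Tyrobp*, *Irf8* and *S100a9* were higher in *Eif4g2* cKO and *Cst3* stood at 0.07. The 18 listed genes summed to 642 CPM for WT and 1726 CPM for *Eif4g2* cKO, with *Tyrobp* the most abundant. *Irf8*, a factor of dendritic and myeloid cells, had 4 UMIs in 1 WT cell and 26 UMIs in 7 *Eif4g2* cKO cells, and the 26 UMIs of *S100a9* all lay in 1 cell. Besides the macrophage genes named above, 3 of which the rule limited, *Xcr1* was at 0 in both libraries. Of the 18 listed genes, 10 were at 0 in WT and 6 in *Eif4g2* cKO. *Itgax*, *Csf1r*, *S100a8*, *S100a9* and *H2-Ab1*, which the rule limited, were at 0 in WT only, and *H2-Eb1* in *Eif4g2* cKO only. Of 5 NK and innate lymphoid genes, *Tyrobp* was higher and *Klrb1c*, *Cd7* and *Klra9* were lower (*Cd7* at −1.26, −2.25 without the *Tyrobp* cells and −0.14 without barcodes above 10000 UMIs), with the 14 listed genes at 1206 and 1596 CPM. *Klra9*, a Ly49 receptor, had 24 UMIs in 7 WT cells and 0 in *Eif4g2* cKO, at least 8.39-fold lower against a floor of 3 UMIs. *Ncr1*, which defines NK cells, had 5 and 0 UMIs, and *Eomes* 0 and 3. B cell genes other than *Cd79b*, and the epithelial genes *Krt5*, *Krt8* and *Aire*, were at 0 in both libraries. Of 2 erythroid genes measured, *Hbb-bs* was lower and *Hbb-bt* higher, and the list summed to 248 and 225 CPM, against 9765 and 765 CPM in other T cells. The part of other cell types in the genotype ratios was not tested.

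Ordered by size alone among genes with 50 or more UMIs, the 10 highest ratios in *Eif4g2* cKO began with genes of the *Tyrobp* cells. *Gzmc* stood at 7.16 (5.30 to 10.22) and *Ifitm1* at 4.56 (3.30 to 6.21). *Cox6a2*, a subunit of cytochrome oxidase, had 51 UMIs in 2 cells and 0 in WT, at least 16.2-fold higher against a floor of 3 UMIs. Outside the *Tyrobp* cells, *Gzmc* had 2 WT UMIs and 0 in *Eif4g2* cKO, and *Ifitm1* had 0 in WT and 7 in *Eif4g2* cKO. The others were *Ube2c*, *Rcc1*, *Pclaf* and *Mcm5* of dividing cells, the mitochondrial ribosomal gene *Mrps18c*, the splicing factor gene *Srsf2* and *Dntt*, between 2.07 and 2.65. Without the *Tyrobp* cells *Ube2c* stood at 4.78 and *Dntt* at 1.33, and without barcodes above 10000 UMIs *Ube2c* stood at 0.73, *Rcc1* at 1.14 and *Pclaf* at 1.88, on 7, 8 and 24 UMIs over both libraries. *Dntt* had 71.3 CPM (45.2 to 107) and 322 CPM (265 to 389), still far below the 899 and 966 CPM of other T cells.

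Among genes with 50 or more UMIs, the 10 lowest ratios were those of *Dennd4a*, *Inpp4b*, *Plcxd2*, *Ncf4*, *Icos*, *Cxcr6*, *Zbtb16*, *Gimap3*, *Chn2* and *Ankrd44*. Of these, *Zbtb16* helped to choose the cells. *Dennd4a*, a membrane trafficking gene, had 84 UMIs in 33 WT cells and 3 UMIs in 3 *Eif4g2* cKO cells, a log2 ratio of −4.88 (−7.18 to −3.28), against −1.72 in other T cells. *Inpp4b*, a lipid phosphatase of the phosphoinositide pathway, had 131 UMIs in 31 cells and 12 UMIs in 5 cells, a ratio of −3.52 (−4.51 to −2.66), against −2.95 in other T cells. *Ncf4*, a subunit of the phagocyte oxidase, had 45 UMIs in 21 cells and 5 UMIs in 5 cells, a ratio of −3.24 (−4.93 to −1.91). *Gimap3*, a GTPase of lymphocyte survival, had a ratio of −2.65 (−3.79 to −1.68), and *Chn2*, a Rac GTPase-activating protein, one of −2.60 (−3.57 to −1.74). In other T cells the ratios of 9 of them lay between −1.08 and −3.03, and *Zbtb16*, with 8 WT and 3 *Eif4g2* cKO UMIs there, had −1.48, with an interval of −4.03 to 0.58. Several are long genes. Against the median of genes of like span, *Zbtb16* had a ratio of −1.95, *Inpp4b* one of −2.62, *Dennd4a* −3.98, *Chn2* −1.70 and *Ankrd44* −1.69.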

How the data were processed

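The authors ran dnbc4tools (version 2.1.3 in the series text, 3.0 in the file headers) and deposited raw UMI counts per gene and barcode for 1 cDNA library per mouse. The submitters' processing notes name mm10. Positions come from GENCODE M21 on GRCm38, in which 97.5% of the 21926 gene rows were found with the same identifier and version. The counts show no normalization. Barcodes were chosen by the stated rule, and UMIs were summed over them in each library and divided by their total (CPM). Python 3.11.15, numpy 2.4.6, pandas 2.3.3 and SciPy 1.17.1 gave the intervals. Only the calculation of genotype ratios and their intervals was tested on simulated data. The simulated counts were independent and lacked the unevenness between cells seen here, so they do not test the intervals for it. Where a library had 0 UMIs, a floor of 3 UMIs per library set the bound. Such a bound is not the limit of an exact interval, which for *Cox6a2* began lower, at a log2 ratio of 3.67.

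The members, routes, gene lists and alternatives were chosen with earlier results of these data known. Leaving out cells with 3 or more *Tyrobp* UMIs, the cell with most UMIs of a gene, the deepest chosen WT cell or, for list counts, the genes of the rule, were chosen after seeing the data. Named were the rule, gate and marker genes, the 15 largest differences from other T cells, the 10 highest and 10 lowest genotype ratios at 50 or more UMIs, list members at 20 or more UMIs, and a set of lineage genes. Genes named in single cells, in the route comparison or as counts under 20 UMIs were picked after their values were seen. No doublet was removed, since a doublet caller run earlier had marked none, which was read as a failed call. Its result is not given here, so the share of doublets among the chosen cells is not known. Receptor constant genes, some further genes and the oligo libraries are not reported here.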

Additional observations from a re-analysis of the deposited data

How the results depend on the processing

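No paired analysis was possible because each genotype had 1 library. The share of chosen cells in *Eif4g2* cKO, 0.854%, was 0.600% with at least 6 UMIs required, 0.507% without barcodes above 10000 UMIs and 0.554% without the *Tyrobp* cells. With at least 3 genes required the WT and *Eif4g2* cKO shares were 0.615% and 0.438%, without *S100a4* and *S100a6* in the rule 0.632% and 0.438%, after thinning each barcode to 1000 UMIs 0.399% and 0.300%, and after thinning with 2 UMIs required 0.665% and 0.392%.

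The counts of genes higher and lower in *Eif4g2* cKO were 98 and 170 of 1702 measured. They were 45 and 76 of 881 with at least 3 genes required, and 45 and 87 of 944 without *S100a4* and *S100a6*. Thinning gave 19 and 23 of 380, and thinning with 2 UMIs required 19 and 43 of 538. They were 30 and 71 of 833 without barcodes above 10000 UMIs, 304 and 627 of 4151 at 20 UMIs, and 39 and 57 of 811 at 100 UMIs. Beyond a log2 ratio of 0.5 they were 366 and 389 of 1702. Genes higher numbered 51 of 1350 when no antigen-presenting UMI was allowed. Genes lower numbered 108 of 1219 with at least 6 UMIs required and 113 of 1702 after subtracting the median ratio of genes of like span. Fewer cells or another minimum change how many genes are measured. Genes above other T cells, 91 of 1714, numbered 57 of 866 without *S100a4* and *S100a6*.

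Of 776 ratios of named genes under the alternatives, 616 lay within the counting interval of the reported ratio, 150 lay outside it, and 10 that were beyond 1 changed sign. *Ube2c* became −0.82 with at least 3 genes required, −1.04 without *S100a4* and *S100a6* and −0.56 after thinning, the last on 3 UMIs over both libraries, no more than the floor. *Rcc1* became −1.14 after thinning, on 4 UMIs, and −0.16 with 2 UMIs required, on 6. *Ctsw* became 0.22, 0.23 and 0.029 under both thinnings and without barcodes above 10000 UMIs, *Cd7* became 0.026 after thinning, and *Plac8* −0.13 without the *Tyrobp* cells. Among members of the gene lists, *Ly6a*, *Ccnd2* and *Junb* were within 2-fold without barcodes above 10000 UMIs, at −0.31, −0.84 and −0.86, and *Tmem176b*, *Endou*, *Ccr7* and *Jun* without the *Tyrobp* cells, at 0.71, −0.68, −0.90 and −0.65. Without the deepest chosen WT cell alone, 12 of 19 lineage factors were lower and 1 higher, with *Zbtb16* and *Sox13* of the rule among the lower. Of 7 gamma delta genes 4 were lower, *Sox13* among them, and of 15 homing genes 6 were lower and 1 higher. Of 13 type 1 genes 7 were lower and 3 higher, with *Ccl5* and *Xcl1* of the rule among the higher. The share of all genes higher or lower is not given for that setting, so these counts have no background. The causes were not tested.

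With 98 cells, a gene of 50 UMIs rests on few molecules and often on few cells, and for 5 genes higher and 7 genes lower in *Eif4g2* cKO 1 cell of the library with the higher level held most of the gene's UMIs.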

Other observations

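T cells that held 4 or more UMIs of a single gene of the rule stayed outside it, 25 in WT and 16 in *Eif4g2* cKO. *Sox13* was that gene in 6 WT and 8 *Eif4g2* cKO cells, *Ccl5* in 7 and 2, and *Xcl1* in 4 and 3, while *Zbtb16* was that gene in 0 cells of either library. A further 5 WT and 1 *Eif4g2* cKO barcodes met the rule on the 9 genes but held no CD3 UMI, and 12 and 3 were kept out by the antigen-presenting genes.

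The 15 cells that met both the cytotoxic and the *Sox13*-*Fcer1g* route, 10 in WT and 5 in *Eif4g2* cKO, differed most from the other chosen cells in *Gzmc*. It had 301 UMIs in 3 of these cells, all of *Eif4g2* cKO (4299 CPM, against 3.38 CPM in the rest). The 15 cells were also richer in *Klrk1*, *Pglyrp1*, *Itgae* and *Cd7*, among others. *Klrk1* had 21 UMIs in 7 of these cells (300 CPM, against 30.5 CPM in the rest), and *Itgae*, the CD103 integrin, had 17 UMIs in 6 cells (243 CPM, against 49.1 CPM). *Cd7* had 65 UMIs in 11 cells (928 CPM, against 201 CPM). The 5 *Eif4g2* cKO cells among them had a median of 2 CD3 UMIs and all held 3 or more *Tyrobp* UMIs, as did 2 of the 10 WT cells, whose median was 8.5 CD3 UMIs.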
